A study of Mus musculus with 20 samples.

Results

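The subject is the genes for oxidative phosphorylation, the mitochondrial pathway that makes most of the ATP of a resting cell. The members were the 86 genes, of 24128 named genes and transcripts on the array, whose array symbols begin with Nduf (assembly factors of the Ndufaf series left out), Uqcr, Cox4 to Cox8 or Atp5, together with Sdha, Sdhb, Sdhc and Sdhd. The rule reads symbols and no measured value. Of the 86 members, 36 are subunits of complex I, 4 of complex II, 8 of complex III, 18 of complex IV and 15 of complex V. Ndufa4, named after complex I, was counted with complex IV. The other 5 share a symbol but are not counted as subunits: Ndufa4l2, a paralogue of Ndufa4; Cox7a2l, which joins complexes III and IV; Atp5s and Atp5sl, now called Dmac2l and Dmac2; and the pseudogene Atp5c1-ps. Cyc1, a complex III subunit that the symbol rule misses, was placed in a separate list of electron carriers.

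Complexes I and II pass electrons from NADH and succinate to ubiquinone, complex III passes them on to cytochrome c, and complex IV hands them to oxygen. Complexes I, III and IV pump protons across the inner membrane, and complex V, the ATP synthase, uses the returning protons to make ATP. Most subunits are nuclear genes; a small core is encoded in mitochondrial DNA. Several complex IV subunits have a common isoform and a second one that is typical of heart and skeletal muscle (Cox6a2, Cox7a1, Cox8b) or of oxygen-sensing and smooth muscle cells (Cox4i2). Irgm1 is an interferon-induced GTPase, and interferon-stimulated genes across tissues of mice lacking it were the stated topic of the study.

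RNA from 20 samples was hybridised singly, labelled with Cy5, to Agilent mouse arrays. Every mouse was of C57BL/6 background and specific pathogen-free housing, and each sample came from a separate mouse within its tissue. Salivary gland was taken from 4 Irgm1-/- females of 9 weeks and 4 wild type females of 6 or 7 weeks, so age and genotype cannot be told apart there. Whole duodenum, called small intestine here, came from 3 Irgm1-/- mice (1 female and 2 males) and 3 wild type females, all 6 or 8 weeks old. The samples labelled colonic macrophages came from 3 Irgm1-/- and 3 wild type mice, and the animal numbers show that these were the same 6 animals that gave the small intestine. Both males were Irgm1-/-, so sex and genotype cannot be fully told apart in these 2 tissues. A level is the log2 processed intensity minus the 75th percentile of the array. For the genotype comparison this was set within each tissue (the within-tissue scale); for tissue comparisons it was set over the 8448 probes detected on all 20 arrays (the common scale). Levels are compared within a probe only.

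The arrays differed in brightness. The 75th percentile of salivary gland arrays was 130 to 1022 intensity units, that of small intestine arrays 2322 to 4690 and that of macrophage arrays 922 to 2137. Of their probes 25.2% to 48.7%, 52.6% to 62.1% and 57.0% to 74.2% were well above background. In small intestine the 2 genotypes did not overlap in brightness: 3868 to 4690 for Irgm1-/- and 2322 to 3204 for wild type. Both Irgm1 probes were higher on the arrays labelled Irgm1-/-, with no overlap of the genotypes in any tissue. The brighter was higher by 2.64 in salivary gland, 1.16 in small intestine and 0.88 in macrophages, and the other by 2.26, 1.18 and 1.16. The sources used here do not say whether the probes lie in the deleted part, so they do not check the labels. Every direction below follows the labels. Of the members, 78 were well above background on all 20 arrays; Cox7b2 and Cox8c, known from testis, were on none. After the filter on dim probes 83, 84 and 83 members were tested in salivary gland, small intestine and macrophages, and 84 across tissues.

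The samples also differed in cell markers, given here as mean log2 levels of a marker list on the common scale. Salivary acinar markers were at 0.59 to 4.0 in their own tissue, as were enterocyte markers at 0.44 to 1.60. Within salivary gland the macrophage list stood at -1.71 to -1.18 (Irgm1-/-) and -2.35 to -2.17 (wild type), and the T cell list at -4.72 to -2.81 and -6.01 to -4.88, both without overlap. In wild type 4 of the 5 T cell genes and 2 of the 10 macrophage genes were on no array well above background. The wild type T cell values thus rest mostly on undetected probes. The part of these lists in the members' levels was not tested. The samples labelled colonic macrophages had macrophage markers at only -4.82 to -3.06 (Irgm1-/-) and -3.99 to -1.87 (wild type), against -2.35 to -1.18 in whole salivary gland. Their fibroblast markers were at -0.66 to 1.06 and 1.45 to 2.10, and their pancreatic acinar markers at -5.35 to -4.25 (Irgm1-/-) and 1.95 to 3.94 (wild type), with no overlap. In bulk samples such as these, fewer cells of a type and less RNA per cell cannot be told apart.

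Promoter sequence was searched for sites of factors known to act on nuclear genes of respiration. RefSeq promoters (GRCm38.p6, 250 bases before to 50 after the start; the array annotation is of the older build mm9) were matched for 70 members. The palindrome made of GCGCA and its reverse complement TGCGC, the core site of the nuclear respiratory factor NRF1, stood on either strand in 5 of the 70 (7.14%) against 0.977% of 27025 promoters of all genes. The 4 that lie in front of the start are shown with 10 bases on each side and the palindrome in capitals; the fifth was in Uqcrc1. Coordinates are chr5:115349101-115349130 (minus strand) for Cox6a1, chr17:56717692-56717721 (plus) for Ndufa11, chr15:102671070-102671099 (minus) for Atp5g2 and chr5:108434430-108434459 (minus) for Atp5k.
Cox6a1: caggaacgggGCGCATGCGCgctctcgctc
Ndufa11: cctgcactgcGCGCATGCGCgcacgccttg
Atp5g2: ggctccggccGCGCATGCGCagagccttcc
Atp5k: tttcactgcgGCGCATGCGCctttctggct

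A looser form, GCGCA followed by any base and GCGC, which includes the palindrome, was in 22.9% of members' promoters and 4.78% of all. CCGGAAG, an ETS site that GABPA can bind, was in 21.4% against 9.12%; AAGATGGCG, a YY1 site, in 10% against 1.49%; and TCAAGGTCA, an estrogen-related receptor site, in 2.86% against 0.407%. TATAAA was in 10% against 14.2%. In all, 33 of the 70 (47.1%) held at least 1 of the looser NRF1, the ETS or the YY1 letters, against 14% of all promoters. A match of letters is a description, not a bound site.

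3 whole upstream stretches of 250 bases are printed because these genes carry results given below: Sdhd (chr9:50603850-50604099, minus), a membrane anchor of complex II, whose looser NRF1 and ETS letters are in capitals, and the muscle-type isoforms Cox7a1 (chr7:30183921-30184170, plus) and Cox8b (chr7:140900447-140900696, minus), in whose stretches none of the searched letters occurred.
Sdhd: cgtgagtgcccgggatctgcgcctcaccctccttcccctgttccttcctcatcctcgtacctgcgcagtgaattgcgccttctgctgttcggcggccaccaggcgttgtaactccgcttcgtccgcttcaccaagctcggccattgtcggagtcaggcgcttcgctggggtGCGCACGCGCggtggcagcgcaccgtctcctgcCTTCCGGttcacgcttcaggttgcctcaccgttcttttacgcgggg
Cox7a1: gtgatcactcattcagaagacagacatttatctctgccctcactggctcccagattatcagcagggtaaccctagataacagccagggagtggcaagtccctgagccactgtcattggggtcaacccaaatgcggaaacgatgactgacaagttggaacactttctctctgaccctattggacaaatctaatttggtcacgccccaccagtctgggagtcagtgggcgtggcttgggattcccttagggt
Cox8b: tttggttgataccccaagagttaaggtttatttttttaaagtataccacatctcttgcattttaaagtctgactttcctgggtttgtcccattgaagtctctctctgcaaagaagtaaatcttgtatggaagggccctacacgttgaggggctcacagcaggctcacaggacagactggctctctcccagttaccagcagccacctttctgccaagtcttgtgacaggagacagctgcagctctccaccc

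In salivary gland the members' levels did not separate the genotypes. Of 83 members, 0 passed the adjusted threshold of 0.05 in limma, where 2.85% of all 9726 genes tested did. At an unadjusted p under 0.05, 0 members were higher and 2 lower, where 22.3% of all genes passed and 6.76% were lower. The median Irgm1-/- minus wild type difference of the members was 0.02 on the log2 scale, beside 0.05 for all genes, and 48 members were above 0 (56.8% of all genes were) and 35 below. Group levels did not overlap for Cox5a (higher in Irgm1-/-; 11.2% of all genes did so) or for Ndufa4l2 and Atp5g1 (lower; 3.33%). The members' median difference had opposite signs on the 2 slides, each of which held 2 arrays a genotype. It was -0.12 on the first (66 of 83 members below 0) and 0.14 on the second (12 of 83 below 0). For all genes it was 0.07 and 0.05. By complex the median differences over both slides were 0.02 (I), 0.12 (II), -0.02 (III), 0.02 (IV) and 0.00 (V). The catalytic core lay between -0.18 (Sdhb, the iron-sulfur subunit of complex II) and 0.26 (Sdha, its flavoprotein).

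The low values were at isoforms. Ndufa4l2, a paralogue that hypoxia induces, read -4.12, -3.90, -4.02 and -3.93 in Irgm1-/- and -3.48, -3.58, -3.50 and -3.63 in wild type on the within-tissue scale. The 4 Irgm1-/- values lay below all 4 wild type values, a difference of -0.44 (SE 0.10, limma adjusted p = 0.058), and the probe was well above background on 3 and 4 arrays. With the slide as a block its limma adjusted p was 0.0455, so that it was called, in a fit that called 643 of all 9726 genes. Cox4i2 read -2.10, -1.51, -1.22 and -0.61 in Irgm1-/- and -1.23, -0.91, -0.61 and -0.25 in wild type, a difference of -0.61 (SE 0.32, limma adjusted p = 0.285) with overlapping groups. Cox6b2, a testis-type partner of Cox6b1, differed by -0.41 (SE 0.14, limma adjusted p = 0.155).

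The high values of Cox8b and Cox7a1 rested on 1 array. Cox8b read -2.10, -2.31, 1.46 and -1.50 in Irgm1-/- and -1.95, -1.58, -1.54 and -2.14 in wild type, so that replicate 3 alone stood above all others (difference 0.69, SE 0.74, limma adjusted p = 0.574). On the same array Cox7a1 read 1.1, where the other 3 Irgm1-/- arrays were at -0.55 to -0.46 and wild type at -0.40 to 0.06. The members as a set were also highest there: 72 of 83 lay above the tissue mean, by a median of 0.15, while the other Irgm1-/- arrays had medians of -0.06 to -0.04. Brown fat genes were high on that array on the common scale. Ucp1, the uncoupling protein of brown fat, was at -0.40 there and at -8.76 to -5.86 on the other Irgm1-/- arrays, and Cidea, a lipid droplet protein, at 0.03 against -7.16 to -4.86. Over the 6 adipocyte markers the mean level ran from -6.19 to -1.06 in Irgm1-/- and from -6.33 to -4.95 in wild type, where 5 of the 6 were on no array well above background; their part in these members' levels was not tested. On leaving out each array in turn, replicate 3 included, the members' median difference ran from -0.04 to 0.06, and 0 members were called each time.

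Cox6a2 read -4.90, -4.79, -3.55 and -2.84 in Irgm1-/-. It was well above background on 0 of the 4 wild type arrays, whose mean was -4.86, and the groups overlapped. Between group means this gives a bound of at least 1.38-fold higher in Irgm1-/-, which does not hold for each array. The gene passed the filter on dim probes through the Irgm1-/- arrays alone, and it was not called (limma adjusted p = 0.28). Replicates 3 and 4 were the high ones. The same arrays were high in Ckm, muscle creatine kinase, on the common scale, at -3.26 and -2.73 there and at -6.16 to -4.94 on the other 6. Over the 8 skeletal muscle markers the mean level ran from -7.06 to -3.66 in Irgm1-/- and from -6.27 to -5.46 in wild type. Myh1, Myh2 and Mylpf were on no Irgm1-/- array well above background, and 6 of the 8 markers were on no wild type array. The part of muscle genes in the Cox6a2 level was not tested. Atp5sl, a complex I assembly protein, differed by 0.34 (SE 0.16, limma adjusted p = 0.235).

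In small intestine nearly all members were lower on the Irgm1-/- arrays, but 0 passed the test. Of 84 members, 81 were lower in Irgm1-/-, where 62.8% of all genes were, and the median difference was -0.38 against -0.09 for all 15399 genes tested. Levels of the 2 groups did not overlap, with Irgm1-/- lower, for 52 members, where this held for 12.8% of all genes. At the adjusted threshold 0 of 84 members passed (0.188% of all genes did, each of them higher; smallest limma adjusted p of a member 0.663), and 16 were lower at an unadjusted p under 0.05, where 4.29% of all genes were. The direction was the same in each complex, with medians of -0.38 (I), -0.28 (II), -0.38 (III), -0.41 (IV) and -0.42 (V), and the catalytic core ran from -0.53 (Sdhd, the membrane anchor of complex II) to -0.13 (Sdha). Members are mostly bright: 67 of the 84 lay in the brightest 10% of all genes, where all genes had a median difference of -0.29 and these members -0.39.

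The largest differences were in complex V. Atp5e, the epsilon subunit in its rotor, read 4.48, 4.83 and 4.54 in Irgm1-/- and 5.99, 4.99 and 5.14 in wild type on the within-tissue scale (difference -0.75, SE 0.28, limma adjusted p = 0.663). Atp5g2, a gene for the c-ring that turns as protons pass, read 5.80, 6.10 and 5.78 against 6.97, 6.21 and 6.38 (difference -0.62). Uqcrh, the hinge protein of complex III, read 5.30, 5.78 and 5.31 against 6.37, 5.89 and 5.95 (difference -0.61). In each of these 3 genes the groups did not overlap, yet wild type replicate 1 was far above the other 2 wild type arrays. Atp5l, subunit g of complex V, differed by -0.66 (SE 0.34) with overlapping groups. The 3 members above 0 were Ndufa10 of complex I (0.40, SE 0.35), Ndufa4l2 (0.07) and Atp5s (0.07).

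Wild type replicate 1 carried much of the size. The members' median deviation from the tissue mean was 0.48 on that array, 0.02 and 0.06 on the other 2 wild type arrays, against -0.26, -0.06 and -0.25 for the 3 Irgm1-/- arrays. It was also the dimmest array of the tissue, with a 75th percentile of 2322 units. Without it the median difference was -0.23, and on the slides, each of which held both genotypes, it was -0.76 (1 array a genotype, including that array) and -0.20 (2 arrays a genotype). Brightness moved with genotype in this tissue, as given above, and its part in the difference was not tested. Cell markers moved with genotype too: the macrophage list (9 of 10 genes detected on every array) stood at -3.22 to -2.82 in Irgm1-/- and -4.05 to -3.37 in wild type, and the 6 goblet and Paneth genes at 2.38 to 2.56 and 2.60 to 2.75, both without overlap, while the 9 enterocyte genes overlapped. Their part was not tested. Quantile normalization gave -0.15 for the members and -0.05 for all genes.

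**Figure D1:**
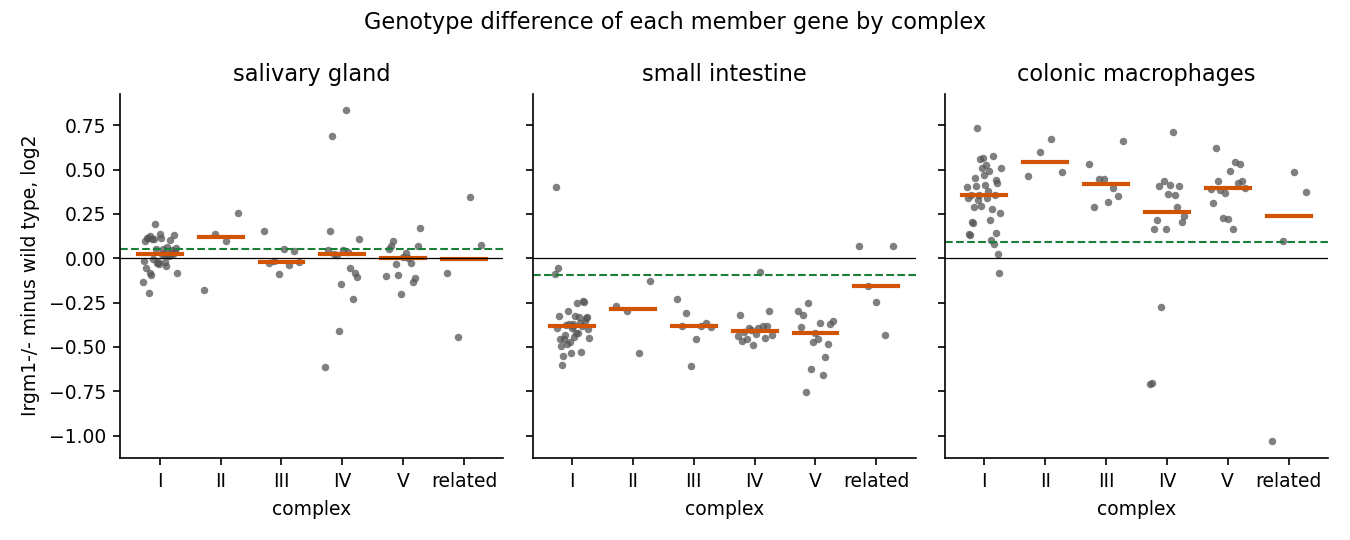
Irgm1-/- minus wild type log2 difference (vertical axis) of each tested member, by complex (horizontal axis), for salivary gland, small intestine and colonic macrophages; each point is 1 gene and the bar is the median of its complex. The dashed line is the median of all genes tested. Medians of the 5 complexes are -0.02 to 0.12 for salivary gland, -0.42 to -0.28 for small intestine and 0.26 to 0.54 for macrophages.

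In the samples labelled colonic macrophages most members were higher in Irgm1-/-, again with 0 past the test. Of 83 members, 78 were higher, where 60.6% of all 17027 genes tested were, and the median difference was 0.37 against 0.09. The adjusted threshold was passed by 0 members (0.229% of all genes), and at an unadjusted p under 0.05 there were 0 higher and 2 lower members, where 11.9% of all genes passed and 7.56% were lower. Groups did not overlap for 4 members with Irgm1-/- higher (Ndufa4, Atp5sl, Uqcrfs1 and Sdhd; 7.62% of all genes) and for 1 with it lower (Cox6b2; 9.09%). The complex medians were 0.36 (I), 0.54 (II), 0.42 (III), 0.26 (IV) and 0.40 (V), and the catalytic core ran from 0.32 (Uqcrc1, a large core protein of complex III) to 0.67 (Sdhd).

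Ndufa12, an accessory subunit of complex I, read 2.02, 1.26 and 0.97 in Irgm1-/- and 1.22, 0.47 and 0.35 in wild type on the within-tissue scale (difference 0.73, SE 0.36, limma adjusted p = 0.503). Sdhd read -0.16, -0.64 and -0.67 against -0.69, -1.21 and -1.59, a difference of 0.67 (SE 0.31, limma adjusted p = 0.454) without overlap. Cox7a1 differed by 0.71 (SE 0.50). The arrays of a genotype were spread as widely as the genotypes were apart: the members' median deviations were 0.64, 0.19 and -0.25 in Irgm1-/- and 0.32, -0.34 and -0.53 in wild type. In Irgm1-/- the values 0.64 and 0.19 were of males and -0.25 of the female, and the part of sex was not tested. Leaving out 1 array at a time moved the median difference between 0.15 and 0.62, and the slides gave 0.42 and 0.33.

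5 members lay below 0: Ndufa4l2, Cox6b2, Cox4i2, Cox8b (-0.28, SE 0.34) and Ndufa11 of complex I (-0.085, SE 0.34). Ndufa4l2 read -4.22, -3.25 and -3.32 in Irgm1-/- and -3.31, -2.10 and -2.28 in wild type, a difference of -1.03 (SE 0.40, limma adjusted p = 0.338), and it was well above background on 2 arrays of each group. With the replicate number as a block, which pairs arrays whose deviations correlate at 0.29 to 0.66, its limma adjusted p was 0.0223; it was the 1 member called in that fit, which called 7.68% of all genes. Cox6b2 read -0.52, 0.05 and -0.28 against 0.47, 0.49 and 0.41 (difference -0.71, SE 0.25, limma adjusted p = 0.279). Cox4i2, at -1.15, -1.28 and 0.66 against 0.03, -1.16 and 1.48, differed by -0.71 (SE 0.71) with overlapping groups. Pancreatic acinar, fibroblast and smooth muscle markers all stood lower on the Irgm1-/- arrays of this tissue without overlap, smooth muscle at -4.13 to -2.81 against -2.12 to -1.31, and their part in the members' differences was not tested.

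**Figure D2:**
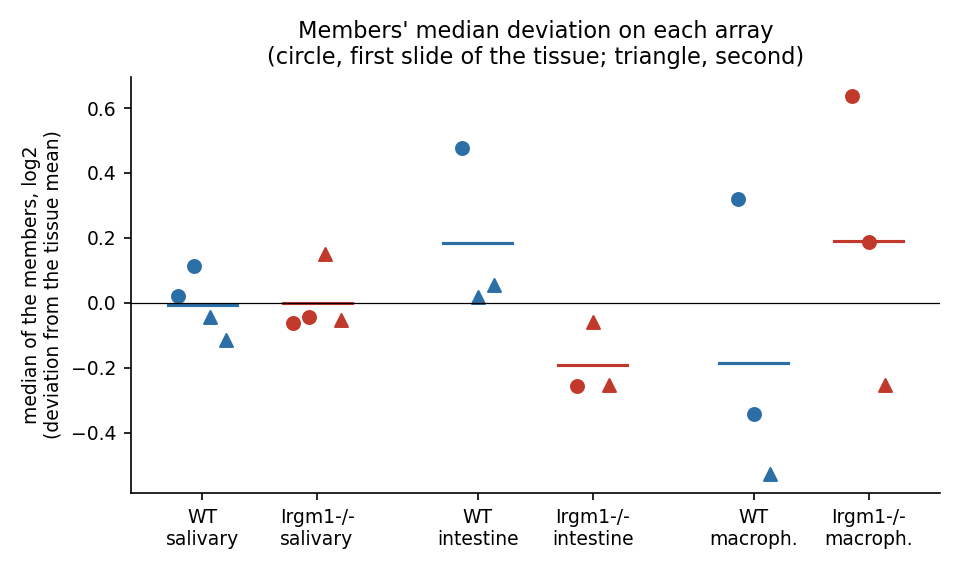
Median deviation of the members from their tissue mean (vertical axis, log2) on each array, by tissue and genotype (horizontal axis); circles are arrays of the first slide of a tissue, triangles of the second, and bars are group means. Wild type replicate 1 of small intestine stands at 0.48 and Irgm1-/- replicate 3 of salivary gland at 0.15, and macrophage arrays of both genotypes spread from -0.53 to 0.64.

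The genotype differences of small intestine and macrophages had opposite signs, although the samples came from the same animals. Members are mostly bright, and the medians of all genes below are not matched for brightness. In the brightest class given above, small intestine medians were -0.29 (all genes) and -0.39 (67 members). In the brightest class of macrophages they were 0.07 and 0.35 (47 members). After quantile normalization the member medians were -0.15 and 0.38, in the same order of tissues. Brightness also separated the genotypes in small intestine, and its part was not tested. The difference between the 2 genotype effects was tested gene by gene. Macrophages minus small intestine had a member median of 0.77 against 0.22 for all 19226 genes, 80 of 84 members were above 0 (63.7% of all genes), and 42 members were higher and 1 lower at an unadjusted p under 0.05 (13.9% of all genes in either direction). At the adjusted threshold 0 members passed (0.895% of all genes). The smallest p-values were those of Sdhd (effects of 0.67 and -0.53, difference 1.20, SE 0.36, limma adjusted p = 0.123) and Atp5g3, another c-ring gene (0.54 and -0.56, difference 1.1, SE 0.36, limma adjusted p = 0.159). With the replicate number as a block 4 members passed (5.03% of all genes): Sdhd, Atp5g3 and Ndufa12, with differences of 1.20, 1.1 and 1.06, and Ndufa4l2 with -1.1 (limma adjusted p = 0.042, 0.043, 0.038 and 0.024). That block pairs the genotypes within a tissue and not the tissues of an animal: 2 of the 6 animals have the same number in both. With the animal as a random block, an alternative chosen after seeing the data, 0 members passed (1.76% of all genes; Sdhd at a limma adjusted p of 0.0764). Without wild type macrophage replicate 1, 5 members passed in the fit with no block. The share of all genes that passed in that fit is not given here.

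Across the 6 animals the members' deviations in small intestine and macrophages were -0.26 and 0.19, -0.06 and 0.64, and -0.25 and -0.25 in the Irgm1-/- animals. In the wild type animals they were 0.48 and -0.34, 0.02 and 0.32, and 0.06 and -0.53. The animal with the highest members in small intestine was among the lowest in macrophages. Another, an Irgm1-/- animal, was below 0 in both tissues, and a wild type animal was above 0 in both. A relation between the tissues was not tested. Salivary gland minus small intestine had a member median of 0.39, with 0 of 84 called (0.276% of all genes). Its smallest p-values were those of Cox6a2, whose salivary gland effect is only the bound given above, and Atp5sl (0.59, SE 0.26, limma adjusted p = 0.564). Salivary gland minus macrophages had a median of -0.36, with 0 called (4.97% of all genes), and its smallest were those of Atp5s, for which no difference is given because it was well above background on 0 of 8 salivary gland and 1 of 6 macrophage arrays, and of Uqcrfs1, the Rieske protein of complex III (-0.70, SE 0.32, limma adjusted p = 0.30). Each tissue enters 2 of these 3 contrasts, so they are not independent.

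Tissue levels were compared in wild type on the common scale. Macrophages here means the samples so labelled. Their wild type arrays had macrophage markers at only -3.99 to -1.87, fibroblast markers at 1.45 to 2.10 and pancreatic acinar markers at 1.95 to 3.94. The part of these cell types in the tissue differences was not tested. Tissue and scan day cannot be told apart, since each tissue was scanned on its own day, and the scaling sets the zero: the median of all genes was 0.42 for salivary gland minus small intestine, 1.06 for macrophages minus small intestine and 0.79 for macrophages minus salivary gland. Against these the member medians were -0.12, -0.95 and -0.80. The median of all genes depends on the filter. Over genes well above background on every array it was 0.16, -0.04 and -0.29, where the member medians were -0.16, -0.98 and -0.80. Under the other scalings, background correction, probe rules and filters the member median stayed below that of all genes in each contrast, by 0.18 to 1.39, 0.94 to 2.66 and 0.51 to 1.59, although its own sign in salivary gland minus small intestine turned to 0.10 with the percentile taken over the other set of probes.

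Set against small intestine, 21 of 84 members were higher in salivary gland (44.9% of all genes) and 34 lower (30.2%). Complex medians were 0.05 (I), -0.33 (II), -0.62 (III), 0.16 (IV) and -0.49 (V). In macrophages 58 of 84 members were lower than in small intestine (26.4% of all genes) and 9 higher (54.2%), and 50 were lower than in salivary gland (25.8%) and 11 higher (49.9%). Complex II stood lowest: all 4 subunits were lower than in either tissue, with medians of -2.24 and -2.20, where complexes I, III, IV and V had -0.99, -0.78, -0.74 and -1.14 against small intestine and -1.01, 0.09, -0.79 and -0.59 against salivary gland. The Irgm1-/- arrays, which are other samples of the same 3 tissues, gave member medians of 0.00, -0.51 and -0.45, with 42 members lower in macrophages than in small intestine (28.6% of all genes).

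**Figure D3:**
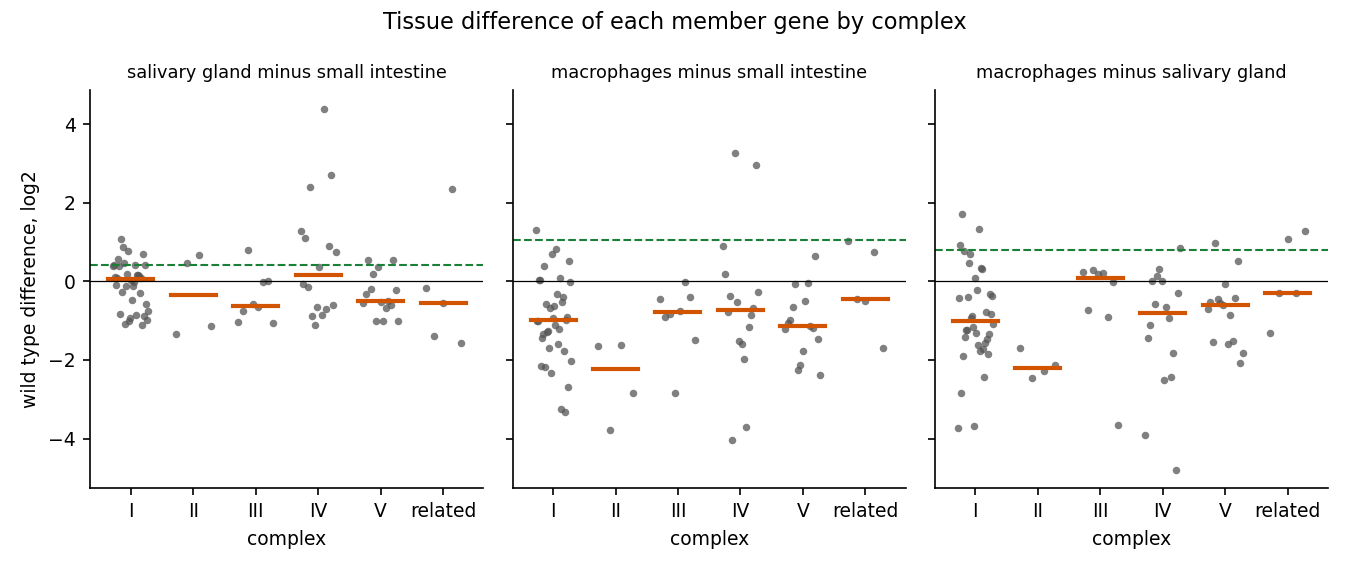
Wild type tissue differences on the log2 scale (vertical axis) of each tested member, by complex (horizontal axis), for the 3 pairs of tissues; each point is 1 gene, the bar is the median of its complex and the dashed line that of all genes tested. Complex II lies lowest in both contrasts with the samples labelled macrophages, at -2.24 and -2.20.

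On the common scale, salivary gland levels of Ndufa4 of complex IV were 1.27, 1.23, 1.08 and 0.95, small intestine levels 1.44, 1.04 and 1.30, and macrophage levels -2.88, -2.71 and -2.72. The macrophage arrays lay below all others, by -4.03 against small intestine (SE 0.16, limma adjusted p = 1.8e-12) and -3.90 against salivary gland, while the other 2 tissues overlapped. Sdhd read -1.11, -1.05, -1.02 and -1.35, then 0.57, 0.00 and 0.07, then -3.24, -3.58 and -3.91, so the 3 tissues did not overlap (macrophages minus small intestine -3.79, SE 0.19, limma adjusted p = 2.2e-11). Ndufa7 and Ndufa12, accessory subunits of complex I, were lower in macrophages by -3.33 and -3.26 against small intestine and by -3.72 and -3.68 against salivary gland. Ndufb4 of complex I was lower than in salivary gland by -2.83. In the Irgm1-/- arrays Ndufa4, Sdhd, Ndufa7 and Ndufa12 differed between macrophages and small intestine by -3.56, -2.90, -2.85 and -2.51.

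Not every low macrophage value held for a second probe. Cox7c of complex IV, at -3.70 against small intestine and -4.80 against salivary gland, had 2 more probes that gave 0.42 and 5.17 in the first of these contrasts. Uqcr10 of complex III, at -2.84 and -3.64, had probes with 0.43 and 0.06. Of 28 members with 2 or more detected probes, 17 had a single sign over their probes in macrophages minus small intestine, as did 13 of 26 and 19 of 26 in macrophages or small intestine set against salivary gland. Ndufa4, Sdhd, Ndufa7 and Ndufa12 have 1 probe each. Between genotypes a single sign was found in 25 of 27 members in macrophages, 25 of 28 in small intestine and 18 of 26 in salivary gland.

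Of the members higher in macrophages, the 6 with the largest differences are given for each contrast. Against small intestine they were Cox6a2 (3.26, SE 0.40, limma adjusted p = 7.5e-07), Cox4i2 (2.97, SE 0.61, limma adjusted p = 0.00026), Ndufb2 (1.30), Ndufa4l2 (1.04), Cox6b2 (0.90) and Ndufc1 (0.81); relative to the median of all genes these are 2.20, 1.90, 0.24, -0.02, -0.16 and -0.25. The last 4 changed sign under some scalings. Against salivary gland they were Ndufa5 (1.71), Ndufa10 (1.34), Cox7a2l (1.29), Atp5c1-ps (1.07), Atp5l (0.97) and Ndufb2 (0.92), which relative to the median of all genes are 0.92, 0.55, 0.50, 0.29, 0.18 and 0.13; all of these but Ndufa5 changed sign under some scaling, and a second Ndufa5 probe gave 0.074. Other probes of Cox7a2l gave 0.71 and -2.78. The values relative to the median of all genes depend on the filter. Over genes well above background on every array that median was -0.04 against small intestine and -0.29 against salivary gland, not 1.06 and 0.79. In salivary gland the members lowest against small intestine were Atp5c1-ps (-1.58), Atp5sl (-1.40), Sdhd (-1.35), Sdha (-1.15), Cox6c of complex IV (-1.11) and Ndufv2 of complex I (-1.1).

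Isoform pairs of complex IV were compared next. Wild type salivary gland had Cox4i2 at -1.33, -1.03, -0.72 and -0.35 on the common scale, small intestine at -4.74, -5.64 and -5.40, and macrophages at -2.52, -3.53 and -0.83. Salivary gland lay above small intestine by 4.40 (SE 0.57, limma adjusted p = 2.7e-06), and by 3.95 in Irgm1-/-; macrophages overlapped salivary gland. Its partner Cox4i1, the common form, was at 4.28 to 4.60, 3.0 to 3.15 and 2.21 to 2.92, so salivary gland was again highest, by 1.29 (SE 0.20, limma adjusted p = 1.5e-05), and the other 2 tissues did not overlap.

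Wild type salivary gland had Cox8b at -2.05, -1.70, -1.65 and -2.23, small intestine at -5.81, -4.47 and -3.60, and macrophages at -5.13, -4.29 and -3.86. Salivary gland was above both, by 2.72 over small intestine (SE 0.72, limma adjusted p = 0.0027) and 2.52 over macrophages, while these last 2 overlapped. Cox8a, the common form, differed by -0.65 between macrophages and salivary gland and by 0.38 between salivary gland and small intestine, the latter turning to -0.72 after quantile normalization. Cox8c, the third form, was on no array well above background. Cox7a1 was at -0.49 to -0.06, 0.38 to 0.81 and -0.86 to 0.69, and its 3 contrasts did not pass the test (limma adjusted p = 0.051, 0.066 and 0.97). Cox7a2, the common form, was highest in small intestine at 1.12 to 1.61 and lower in salivary gland and macrophages by -0.61 and -1.17.

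Cox6a2 was well above background on 0 wild type salivary gland arrays, at -7.55 to -7.20 in small intestine and at -4.17 to -4.05 in macrophages; its level in macrophages was at least 1.40-fold that of salivary gland on the common scale, a direction that turned under 3 other scalings. Cox6a1 was at 4.28 to 4.45, 3.32 to 3.58 and 1.55 to 2.65, and salivary gland minus small intestine was 0.90, or -0.58 after quantile normalization. Cox6b1 was higher in small intestine (0.89 to 1.09) than in salivary gland (0.18 to 0.39) except after normexp background correction, where the difference was 0.034 the other way, while its macrophage arrays, at -0.25 to 1.19, overlapped both. Cox6b2 was at -2.41 to -1.85, -3.19 to -2.26 and -2.09 to -1.88. Ndufa4l2 was at -3.72 to -3.59 in salivary gland, above -6.46 to -5.61 in small intestine by 2.36 (SE 0.33, limma adjusted p = 5.5e-06), and at -5.86 to -4.47 in macrophages.

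The 3 genes that encode the same c-ring protein are given by their brightest probe. Atp5g2 was highest in salivary gland (3.63 to 3.75), then small intestine (2.94 to 3.36), then macrophages (1.91 to 2.44), with no overlap, although the first step of 0.54 turned to -0.30 and -0.52 under median and quantile scaling. A second Atp5g2 probe gave macrophages higher, by 0.99 over small intestine and 0.75 over salivary gland, where the brightest gave -0.98 and -1.52. Atp5g3 was highest in small intestine (2.12 to 2.65), above salivary gland (1.23 to 1.47) and macrophages (1.09 to 1.62), which overlapped. Atp5g1 was at 2.65 to 2.87, 2.36 to 2.41 and 2.03 to 2.73, and small intestine and macrophages did not differ beyond their spread. A second probe of Atp5g1 gave 3.23 for macrophages minus small intestine, where the brightest gave -0.05.

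**Figure D4:**
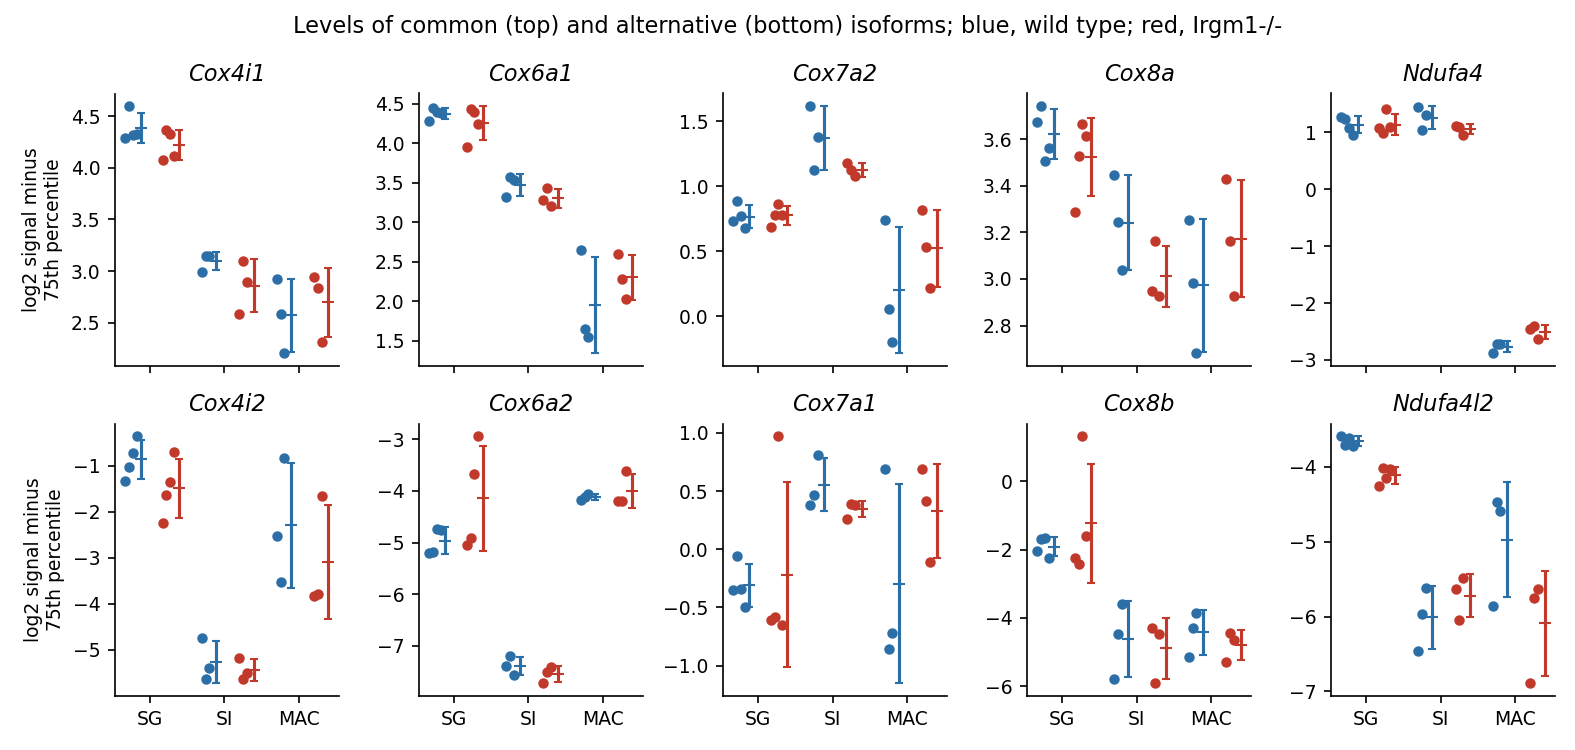
Log2 level on the common scale (vertical axis) of common (top) and alternative (bottom) isoforms on each array, by tissue (horizontal axis: SG, salivary gland; SI, small intestine; MAC, macrophages); points are arrays, wild type in blue and Irgm1-/- in red, with the mean and SD beside them. Cox4i2 and Cox8b lie highest in salivary gland, and Ndufa4 lies lowest in the samples labelled macrophages.

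Other mitochondrial genes were described by lists. In salivary gland the 13 subunits encoded in mitochondrial DNA had a median genotype difference of -0.27, with 11 below 0, while the 16 enzymes of the tricarboxylic acid cycle were all above 0 (median 0.17); 0 genes of either passed. Of all genes 56.8% were above 0 there, with a median of 0.05. Nnt, a transhydrogenase gene in which C57BL/6J mice are known to carry a deletion, was the 1 gene of all these lists that passed. Its levels on the common scale were -3.12, -3.32, -3.17 and -3.31 in Irgm1-/- and -1.54, -1.38, -1.57 and -1.73 in wild type salivary gland, with no overlap (difference -1.66 on the within-tissue scale, SE 0.12, limma adjusted p = 0.00015). Averaged over its probes it was -1.11 and did not pass (limma adjusted p = 0.150). In small intestine Nnt was at -2.53, -2.80 and -2.66 against -2.59, -2.84 and -2.63, and in macrophages the groups overlapped as well.

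In small intestine the lists lay below 0 as the members did: -0.28 for mitochondrial DNA (10 of 13 below 0; CYTB -0.88, COX2 -0.48), -0.29 for the mitochondrial ribosome (74 of 78 below), -0.20 for the tricarboxylic acid cycle (13 of 16 below; Cs, citrate synthase, -0.39) and -0.19 for assembly factors (32 of 39 below). Of all genes 62.8% were below 0 there, with a median of -0.09. Ppargc1a, a coactivator of mitochondrial gene expression, was at 1.09 in the same contrast (limma adjusted p = 0.663). In macrophages the nuclear lists lay above 0: 0.53 for the tricarboxylic acid cycle (16 of 16; Idh3a 1.13, limma adjusted p = 0.172), 0.32 for the mitochondrial ribosome (70 of 76), 0.35 for assembly factors (33 of 37), 0.42 for biogenesis (12 of 13; Ppargc1b 1.48) and 0.31 for electron carriers (7 of 7; Cycs, cytochrome c, 0.58). Of all genes 60.6% were above 0 in macrophages, with a median of 0.09. The subunits of mitochondrial DNA did not share the sign of the nuclear lists there, at -0.12 with 11 of 13 below 0. In both tissues 0 genes of these lists passed.

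Across wild type tissues the subunits of mitochondrial DNA had another order than the nuclear members. In salivary gland minus small intestine 11 of 13 were higher and 0 lower (median 1.40; ND6 2.14, COX2 2.06), where 44.9% and 30.2% of all genes were, and in macrophages minus salivary gland 10 were lower (median -1.77; 25.8% of all genes). In macrophages minus small intestine 3 were lower and 2 higher (median -0.35), where 26.4% and 54.2% of all genes were. The tricarboxylic acid cycle followed the nuclear members in the last contrast, with 12 of 16 lower, against the same 26.4% of all genes, and 0 higher (median -1.66; Suclg2 -3.95, Idh3a -3.81), as did 61 of 78 genes of the mitochondrial ribosome (median -1.27) and 6 of 7 electron carriers (Etfdh -4.45, Cyc1 -2.23).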

How the data were processed

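RNA (5 µg a sample, Qiagen RNeasy, Kreatech ULS labelling) was hybridised to Agilent design 026655, and Feature Extraction 11.5.1.1 gave the deposited files, per the file headers and the labels' protocols. The values used were the deposited processed intensities (linear scale, background-corrected by that software, per the file headers) and its flags for background, outliers and saturation. Of 43020 spots an array, 0.43% were left out as outliers and 0 were saturated. The authors' deposited series table of linear intensities served as an alternative; its order followed the scanner values (lowest Spearman correlation 0.933), it runs in the same direction with array medians of 47.6, 298.7 and 381.2 by tissue, and the sources used here do not give its normalization.

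Spots of a probe were averaged (39429 probes, 27502 of them matched to RefSeq by accession; 6165 probes of unnamed transcripts were not tested), and the brightest probe stood for a gene (29 members had several, 57 had 1). Levels were log2 intensity minus the 75th percentile of the array, over the probes detected on all arrays in salivary gland, where under 50% of probes were detected, and over all probes in the other tissues. A gene was tested where its probe was well above background on at least the number of arrays of the smaller group. Genotype was tested in each tissue, and tissue and the difference of genotype effects over all 20 arrays, with limma 3.58.1 (lmFit, eBayes) in R 4.3.3 and Benjamini-Hochberg adjustment over all genes tested at 0.05. The scripts were tested on simulated data. A fold against a group not above background is the bright group's mean over the higher of the probe's own and the lowest detected signal there, given as "at least". Precision is limited by 3 or 4 arrays a group.

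The members and lists were chosen with earlier results of these data known. Named genes are, by a rule, the 3 largest differences a direction between genotypes, the 6 largest called between tissues, isoform pairs, core subunits, the 2 smallest p-values between tissues' effects and the largest of each list; the brown fat and muscle genes, Ndufa4l2 in the block and members without overlap were named after their values were seen. Same-numbered arrays deviated together in small intestine (correlations 0.20, 0.25 and 0.39) and macrophages (0.50, 0.29 and 0.66) and were treated as paired there in an alternative; in salivary gland (0.20, -0.11, -0.52 and 0.43) they were not. The animal shared by small intestine and macrophages was a random block in an alternative. No pair of arrays was identical (highest correlation 0.994).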

Additional observations from a re-analysis of the deposited data

Results flagged for a closer look

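In salivary gland 68 groups of 4 arrays were examined for a value far from the other 3, and 6 had one; chance gives about 1 in 20 groups. On Irgm1-/- replicate 3 they were Cox7a1 (1.1, the others at -0.55 to -0.46), Uqcrc1 of complex III (1.03, the others at 0.57 to 0.62) and the members' median deviation (0.15, the others at -0.06 to -0.04). On wild type replicate 2 they were Atp5g2 (3.86, the others at 3.73 to 3.75) and Cox4i1 (4.72, the others at 4.39 to 4.44), and on wild type replicate 4 Sdha (-1.11, the others at -0.77 to -0.70).

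The members' genotype difference had opposite signs in macrophages and small intestine, 0.77 apart in the median: each of the 3 same-numbered pairs had a median below 0 in small intestine (-0.76, -0.07 and -0.32) and above 0 in macrophages (0.30, 0.54 and 0.33). The difference of the medians was not tested; gene by gene, limma called 0 members, 42 being higher and 1 lower at an unadjusted p under 0.05.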

How the results depend on the processing

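In the salivary gland genotype comparison the members' median was 0.14 with median scaling and -0.076 with the percentile over all probes; 1 member was called there and with quantile normalization, normexp, the slide as a block, the replicate block and the authors' table, where 0 were called otherwise. It was Ndufa4l2 with all probes, quantile, the slide block and the authors' table (smallest limma adjusted p = 0.0345), Cox6b2 with normexp and Cox4i2 with the replicate block, whose same-numbered arrays do not pair (688 genes called against 277). In small intestine the median was -0.15 with quantile normalization and -0.14 in the authors' table, and the replicate block called 1 gene and 0 members. In macrophages 1 member, Ndufa4l2, was called with the replicate block (1307 genes against 39) and in a fit of all 20 arrays. The replicate block changed no other genotype call of a member, and gave 4 members called in macrophages minus small intestine effects, where the animal as a random block, chosen after seeing the data, called 0. Leaving out 1 array gave medians of -0.04 to 0.06 (salivary gland), -0.49 to -0.23 (small intestine), 0.15 to 0.62 (macrophages), 0.55 to 1.02, -0.59 to -0.14 and 0.26 to 0.47 (effects of macrophages minus small intestine, salivary gland minus macrophages, salivary gland minus small intestine), with 0 to 5, 0 to 1 (without Irgm1-/- salivary gland replicate 4) and 0 members called in these effects; the last median was 0.61 with median scaling. Tissue counts depend on the scaling. For salivary gland minus small intestine, median scaling gave 4 higher and a median of -0.96, quantile 8 and -0.35, the other set of probes 16 lower and 0.10, and Irgm1-/- 0.0032. For macrophages minus small intestine these gave 0, 3 and 2 higher with medians of -3.49, -1.64 and -1.93, and Irgm1-/- -0.51. For macrophages minus salivary gland they gave 0, 5 and 1 higher with medians of -2.50, -1.18 and -2.01 (78 lower with median scaling), and Irgm1-/- 18 higher and -0.45. Signs turned as follows. Median scaling: salivary gland minus small intestine Cox6b2 -0.082 and Atp5g2 -0.30; macrophages minus small intestine Ndufc1 -1.73, Cox6b2 -1.64, Ndufa4l2 -1.50, Ndufb2 -1.24, Cox7a2l -1.80 and Cox8b -2.34; macrophages minus salivary gland Ndufb2 -0.78, Atp5l -0.73, Atp5c1-ps -0.63, Cox7a2l -0.41, Ndufa10 -0.36, Cox6a2 -0.85, Cox6b1 -1.68, Cox6b2 -1.55 and Cox7a1 -1.68. Quantile, in the same order of contrasts: Cox6a1 -0.58, Cox8a -0.72 and Atp5g2 -0.52, then Ndufa4l2 -1.18 and Cox8b -1.65, then Cox6a2 -1.03 and Cox6b2 -0.83. The other set of probes: macrophages minus small intestine Ndufc1 -0.16, Cox6b2 -0.073 and Cox7a2l -0.24, and minus salivary gland Ndufb2 -0.29, Atp5l -0.24, Atp5c1-ps -0.13, Cox6a2 -0.36, Cox6b1 -1.18, Cox6b2 -1.06 and Cox7a1 -1.19. Normexp: salivary gland minus small intestine Cox6b1 0.034. Mean of all probes: macrophages minus small intestine Cox7c 0.63, Cox7a2l -0.59, Atp5g1 1.59 and Atp5g2 0.0083, and minus salivary gland Cox7a2l -0.26 and Atp5g1 1.61. In Irgm1-/-: Cox6b2 -0.032, Ndufa4l2 -0.37 and Atp5g1 0.45, then Atp5g1 0.11 and Atp5g3 0.52. Leaving out 1 array, Cox6b1 ran from -0.42 (without wild type macrophage replicate 1) to 0.30 against salivary gland; without that array 5 members were called in macrophages minus small intestine effects. The cause of these changes was not tested, apart from the scaling that defines them. Counts of called members that stand here without a count of all genes called cannot be read against the background. Dim probes in salivary gland, where 25.2% to 48.7% of probes were detected, limit what can be seen there.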
